A study of Mus musculus with 8 samples.

Results

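Hepatic expression of the genes for fatty acid uptake, activation and mitochondrial oxidation was examined in mouse liver. The 34 genes were taken by name from the table of 21358 genes: 1 regulator, 5 genes of uptake and binding, 7 of activation, 3 of the carnitine shuttle, 14 of beta-oxidation, 3 of electron transfer and 1 pantetheinase. Each of the 34 names matched a row of the table, and all 34 passed the filter on low values in a set of 9867 tested genes. The starvation glucose (SG) group held libraries SG 101, 103, 104 and 105, and the feeding glucose (FG) group held libraries FG 93, 94, 95 and 96. Both groups received glucose and both had been on fasting every other day for 22 weeks, so neither is an untreated control. The labels do not give the mouse strain, sex, age, glucose dose, how the metabolic dysfunction named in the title was produced, the time of collection or the interval since the last food. The series text counts 4 mice per group, but the labels do not state that each library came from a separate animal. The p-values therefore measure the spread between these libraries.

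Long-chain fatty acids enter the hepatocyte with the help of transport proteins and are held in the cytosol by binding proteins. Acyl-CoA synthetases join them to coenzyme A, and the carnitine shuttle carries the acyl group across the mitochondrial membranes. Beta-oxidation then shortens the chain by repeated cycles, and electron transfer flavoprotein passes the electrons of the first step to the respiratory chain. In liver the pathway supplies energy and ketone bodies during fasting, and the nuclear receptor PPAR-alpha is its best known transcriptional regulator.

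The 3 genes of the carnitine shuttle all rose in SG livers, while none of the 14 beta-oxidation genes passed the test. Uptake and activation genes were split, with Slc27a2 and Acsl1 higher and Cd36, Slc27a4 and Acsl5 lower in SG livers. Among the electron transfer genes, Etfb rose. In all, 6 of the 34 genes were higher and 3 were lower in SG than in FG livers at an adjusted p below 0.05 (limma on log2(FPKM + 1), Benjamini-Hochberg adjustment over the 9867 tested genes). The shares were 17.6% higher and 8.82% lower, beside a background of 3.73% of tested genes called higher and 15.6% called lower, or 19.4% in either direction. The median log2 fold change was 0.07 over the 34 genes and -0.14 over all tested genes. FPKM is the number of fragments per kilobase of gene, relative to all fragments counted in the library. Fold changes are given as the SG mean less the FG mean of log2(FPKM + 1), and for genes with low FPKM they are smaller than the true ratio.

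**Figure D1:**
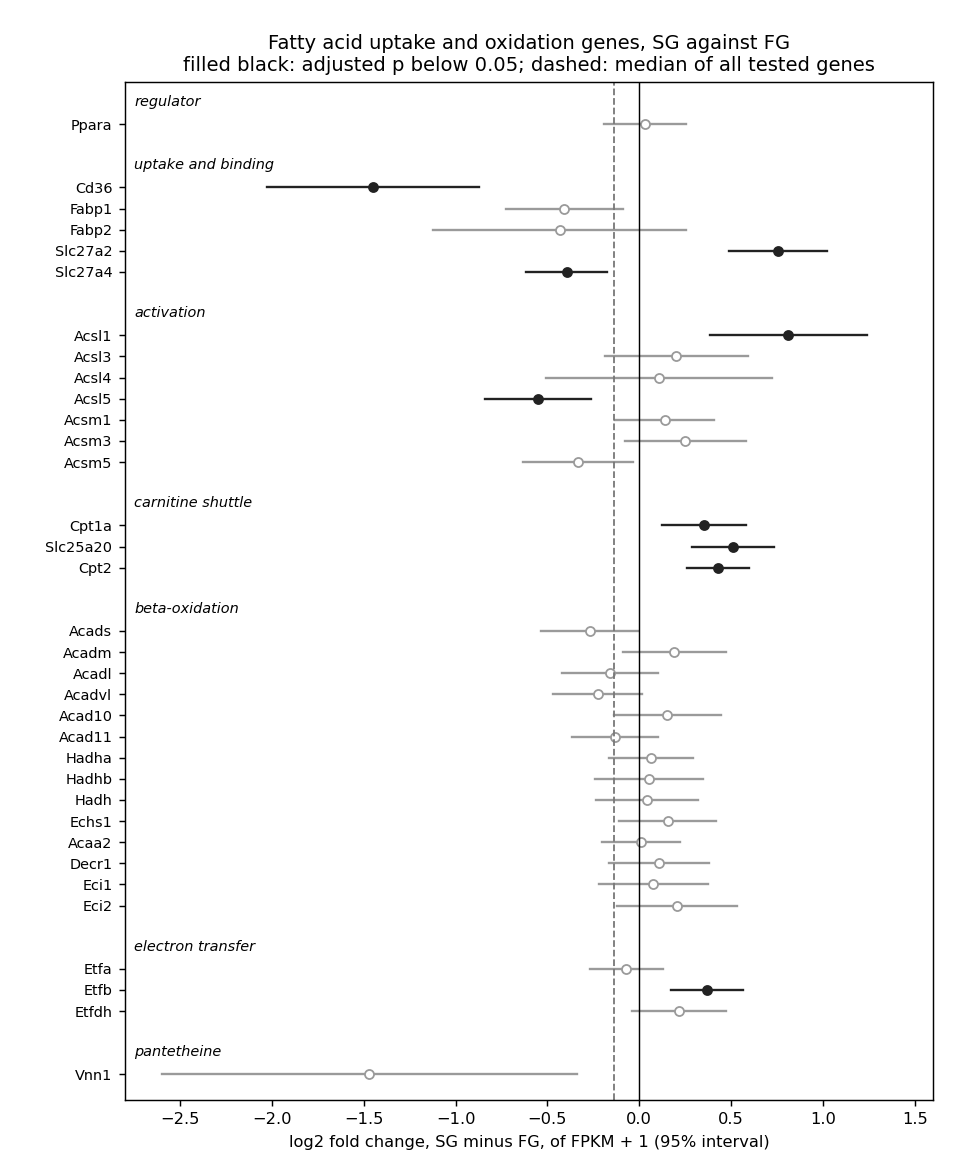
Log2 fold change (SG minus FG, horizontal axis) of the 34 genes by role, with 95% intervals from limma over 4 SG and 4 FG libraries; filled black points passed an adjusted p of 0.05 and the dashed line is the median of all tested genes, -0.14. The 3 carnitine shuttle genes lie right of 0 with intervals that do not reach it, while the beta-oxidation genes lie between -0.27 and 0.21 with no filled point.

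The balance of calls over the whole table depends on the scaling between libraries. After median-ratio scaling, which moved the median of all tested genes by construction, to 0.0059, the calls were 545 higher (5.52%) and 499 lower (5.06%). The share of all calls that were lower was 47.8% with that scaling and 80.8% without it. With that scaling 7 of the 34 genes were called higher and 1 lower. Counted fragments ranged from 36479956 to 39141440 in SG libraries and from 38175359 to 41894909 in FG libraries, as worked back from the smallest steps between FPKM values. All 7 hepatocyte markers were tested, with a summed level of 55640 to 71150 FPKM in SG livers and 54390 to 64360 FPKM in FG livers, and 1 of the 7, Apoa1, was called higher (0.44, adjusted p = 0.0447). The 5 cholangiocyte markers summed to 13.03 to 19.1 FPKM in SG livers and 21.9 to 27.7 FPKM in FG livers, without overlap, and Spp1 was called lower. Of 4 erythroid markers, 3 were tested. Alas2 was called higher, while Hba-a1 and Hbb-bs were not called, with log2 fold changes of -0.15 and -0.11. The 4 skeletal muscle markers summed to 1.37 to 329.5 FPKM in SG livers and 1.42 to 1095 FPKM in FG livers, with actin Acta1 at 471 FPKM in FG 93, 135 FPKM in SG 104 and 51.4 FPKM in SG 105. The 4 pancreatic acinar markers summed to 0.852 to 19.6 FPKM in SG livers and 0.368 to 196.2 FPKM in FG livers. The muscle and pancreas markers were uneven across the libraries, and the part of biliary, erythroid, muscle or pancreas RNA in the results was not tested.

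Cd36 encodes the fatty acid translocase of the plasma membrane, which is also made by endothelial cells, macrophages, muscle and fat. It measured 5.54, 8.92, 10.98 and 10.2 FPKM in SG 101, 103, 104 and 105, against 36.8, 23.0, 29.5 and 16.6 FPKM in FG 93, 94, 95 and 96. Every SG library lay below every FG library. The mean was 8.90 ± 2.40 FPKM in SG livers and 26.5 ± 8.68 FPKM in FG livers (SD, n = 4 each), and limma put the log2 fold change at -1.45 with an SE of 0.26 (adjusted p = 0.00825). It was called in all 8 fits that left out 1 library, including the fit without FG 93 (-1.28, adjusted p = 0.0254). The 7 sinusoidal endothelial markers summed to 87.5 to 97.7 FPKM in SG livers and 111.1 to 131.7 FPKM in FG livers. Clec4g and Fcgr2b, 2 of the 7, were called lower, beside 15.6% of all tested genes called lower. Pecam1, Cdh5, Kdr, Stab2 and Lyve1 were not called, with log2 fold changes of -0.32, -0.24, -0.09, -0.0074 and 0.24. The 7 Kupffer cell and macrophage markers summed to 75.2 to 144.2 FPKM in SG livers and 73.9 to 119.7 FPKM in FG livers, with none called. Of 5 adipocyte markers, 4 stayed below 1 FPKM in every library. The muscle marker Acta1 measured 0.162, 0.732, 134.7 and 51.4 FPKM in SG 101, 103, 104 and 105. In FG 93, 94, 95 and 96 it measured 470.7, 0.0816, 3.25 and 17.6 FPKM, so FG 93 was highest in both Acta1 and Cd36. The part of these cell types in the Cd36 difference was not tested, and in bulk tissue fewer cells of a type cannot be told apart from less RNA per cell.

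Of the fatty acid transport proteins, Slc27a2 was higher and Slc27a4 lower in SG livers. Slc27a2 encodes FATP2, a transporter with very-long-chain acyl-CoA synthetase activity that is abundant in liver. It measured 840.1, 1041, 945.1 and 835.1 FPKM in SG 101, 103, 104 and 105, against 496.8, 577.3, 470.2 and 627.6 FPKM in FG 93, 94, 95 and 96. The groups did not overlap, and the log2 fold change was 0.76 (SE 0.12, adjusted p = 0.00574), called in all 8 fits without 1 library. Slc27a4 (chr2:29802634-29817522, GRCm38.p6) encodes FATP4, a related transporter and synthetase present at a much lower level. It measured 8.34, 7.66, 7.67 and 6.57 FPKM in SG livers, against 11.1, 9.31, 10.8 and 9.76 FPKM in FG livers, also without overlap. Its log2 fold change was -0.40 (SE 0.10, adjusted p = 0.0254), a call that did not hold with median-ratio scaling (adjusted p = 0.125) or in 5 of the 8 fits without 1 library, those without FG 93, FG 95, SG 103, SG 104 or SG 105 (adjusted p up to 0.0751). The difference between the 2 transporters in their change was not tested.

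The binding proteins did not pass the test. Fabp1 encodes liver fatty acid binding protein and ranked 7th of the tested genes by mean FPKM. It measured 5703, 6790, 7985 and 5085 FPKM in SG 101, 103, 104 and 105, against 8613, 8877, 7861 and 8139 FPKM in FG 93, 94, 95 and 96. The groups overlapped through SG 104, which lay above FG 95. The log2 fold change was -0.41 (95% interval -0.73 to -0.09, adjusted p = 0.0707), and the gene was called without SG 104 (adjusted p = 0.0377) and after quantile normalization (0.0369). Fabp2, the intestinal type of fatty acid binding protein, averaged 50.4 ± 15.2 FPKM in SG livers and 69.6 ± 27.3 FPKM in FG livers (SD, n = 4 each) with overlapping groups (-0.43, adjusted p = 0.343). Fabp1 made up most of the summed level of the 5 genes, 7373 ± 1354 FPKM in SG livers and 9022 ± 503 FPKM in FG livers. Without Fabp1 the sum was 982.1 ± 111.0 FPKM in SG livers and 649.3 ± 85.1 FPKM in FG livers (SD, n = 4 each). Slc27a2 alone gave 915.2 FPKM of that sum in SG livers and 543.0 FPKM in FG livers, and the means of Cd36, Fabp2 and Slc27a4 were each lower in SG livers.

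The 250 bases before the RefSeq start of Slc27a2, Cd36 and Fabp1 are shown here because the 3 genes had the highest levels or the largest called changes of the uptake group. They are from RefSeq on build GRCm38.p6 and are written 5′ to 3′ on the strand of the gene. Capitals mark TGACCT, which is AGGTCA on the opposite strand, the half-site bound by nuclear receptors such as PPAR-alpha with its partner RXR. In Fabp1 the longer run of capitals is TGACCT followed, after 1 base, by TGGCCT, a pair that matches only the looser form described next. The Cd36 window lies inside the span of the gene, which has several starts.
Slc27a2, chr2:126552774-126553023, + strand: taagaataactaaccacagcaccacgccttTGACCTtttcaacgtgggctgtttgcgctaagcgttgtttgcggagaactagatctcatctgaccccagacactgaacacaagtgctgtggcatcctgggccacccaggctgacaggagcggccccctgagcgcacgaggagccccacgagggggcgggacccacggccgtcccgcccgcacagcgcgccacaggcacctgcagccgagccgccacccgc
Cd36, chr5:17835897-17836146, - strand: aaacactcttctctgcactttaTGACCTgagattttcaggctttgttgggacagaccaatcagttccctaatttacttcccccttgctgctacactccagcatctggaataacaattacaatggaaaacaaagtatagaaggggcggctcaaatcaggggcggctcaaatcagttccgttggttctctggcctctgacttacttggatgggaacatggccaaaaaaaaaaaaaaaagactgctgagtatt
Fabp1, chr6:71199629-71199878, + strand: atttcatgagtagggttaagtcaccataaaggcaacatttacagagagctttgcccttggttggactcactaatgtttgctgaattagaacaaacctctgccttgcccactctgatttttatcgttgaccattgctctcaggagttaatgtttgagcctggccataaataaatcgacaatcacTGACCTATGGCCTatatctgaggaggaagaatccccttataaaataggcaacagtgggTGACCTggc

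RefSeq promoter windows, from 250 bases before to 50 bases after the start, were matched for 31 of the 34 genes, in 32 windows. The search covered both strands for 2 copies of AGGTCA with 1 base between them, the form to which PPAR-alpha and RXR are known to bind, and for the looser form with 2 copies of AGGNCA. The exact form was in none of the 32 windows and in 0.0396% of all 32851 windows. The looser form was in 1 of the 32 windows, that of Fabp1 at -67 to -55 from the start, and in 0.381% of all windows. Single copies of AGGTCA, a search added after the data were seen and one that overlaps the forms above, were in 8 of the 32 windows and in 16.3% of all windows. The 8 belonged to Acadm, Acadvl, Acsm1, Cd36, Cpt1a, Echs1, Fabp1 and Slc27a2. These 8 genes included Slc27a2 and Cpt1a, which rose, Cd36, which fell, and 5 that did not pass the test. A match describes letters in a window and not a bound site.

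Of the 7 genes of activation, 1 rose, 1 fell and 5 did not pass the test. Of all tested genes, 3.73% were called higher and 15.6% lower, so the 1 fall was near the background share. In RefSeq on GRCm38.p6, Acsl1 lies at chr8:46471037-46536051 and Acsl5 at chr19:55251861-55296628. Acsl1 encodes the main long-chain acyl-CoA synthetase of liver. It measured 183.2, 366.9, 271.2 and 278.8 FPKM in SG 101, 103, 104 and 105, against 166.3, 158.8, 127.7 and 157.0 FPKM in FG 93, 94, 95 and 96. SG 103 was highest and SG 101 stood only a little above FG 93, and the groups did not overlap. The log2 fold change was 0.81 (SE 0.19, adjusted p = 0.0206), and the call was lost without any filter on low values (adjusted p = 0.0619) and without FG 95, SG 104 or SG 105 (adjusted p up to 0.0529). Acsl5, a long-chain synthetase known from mitochondria and endoplasmic reticulum, went the other way. It measured 130.7, 110.1, 100.2 and 129.6 FPKM in SG livers, against 175.3, 159.4, 207.7 and 150.5 FPKM in FG livers, with no overlap. Its log2 fold change was -0.55 (SE 0.13, adjusted p = 0.0201), and it was not called with median-ratio scaling (adjusted p = 0.104), with no filter (0.0513) or without FG 93, SG 103 or SG 104 (up to 0.0579).

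The other long-chain synthetases were low in these livers. Acsl3, known from lipid droplets, averaged 6.85 ± 0.18 FPKM in SG livers and 6.01 ± 1.88 FPKM in FG livers (0.20, adjusted p = 0.434). Acsl4, which prefers arachidonic acid, averaged 12.5 ± 5.68 FPKM in SG livers and 10.9 ± 2.32 FPKM in FG livers (0.11, adjusted p = 0.808), with 20.3 FPKM in SG 105 alone. Without SG 105 its estimate had the opposite sign, -0.14. The medium-chain synthetases of the mitochondrial matrix Acsm1, Acsm3 and Acsm5 had log2 fold changes of 0.14, 0.25 and -0.33 with adjusted p of 0.441, 0.251 and 0.108. They are related in sequence, and the treatment of reads shared between them is not stated in the sources used here. Acsm1 averaged 197.0 ± 30.8 FPKM in SG livers and 177.7 ± 13.2 FPKM in FG livers, while Acsm3 averaged 47.9 ± 6.98 FPKM in SG livers and 40.3 ± 6.73 FPKM in FG livers. Acsm5 averaged 41.4 ± 7.75 FPKM in SG livers and 51.7 ± 3.13 FPKM in FG livers.

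All 3 genes of the carnitine shuttle rose in SG livers, with no overlap between the groups for any of them. Of all tested genes, 3.73% were called higher and 4.35% had every SG library above every FG library. Cpt1a encodes carnitine palmitoyltransferase 1A of the outer mitochondrial membrane, the step that limits entry of long-chain acyl groups and that malonyl-CoA inhibits. It measured 170.0, 167.5, 181.6 and 210.4 FPKM in SG 101, 103, 104 and 105, against 130.3, 159.7, 136.9 and 142.5 FPKM in FG 93, 94, 95 and 96. The lowest SG library and the highest FG library, FG 94, stood close together. The log2 fold change was 0.35 (SE 0.10, adjusted p = 0.0399), and the call was lost with no filter on low values (adjusted p = 0.0756), after quantile normalization (0.0728) and without FG 93, FG 95, FG 96, SG 103, SG 104 or SG 105 (up to 0.113).

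Slc25a20 encodes the carnitine-acylcarnitine translocase of the inner membrane. It measured 76.7, 91.8, 94.8 and 75.1 FPKM in SG 101, 103, 104 and 105, against 59.8, 55.2, 62.3 and 58.3 FPKM in FG 93, 94, 95 and 96. Its log2 fold change was 0.51 (SE 0.10, adjusted p = 0.0116). Cpt2 encodes carnitine palmitoyltransferase 2, which returns the acyl group to coenzyme A in the matrix. It measured 81.2, 77.2, 77.2 and 70.6 FPKM in SG livers, against 58.5, 55.1, 57.2 and 55.5 FPKM in FG livers. Its libraries were the closest together of the 34 genes, with a within-group SD of 0.07 on the log2 scale. The log2 fold change was 0.43 (SE 0.08, adjusted p = 0.00819), and Cpt2 and Slc25a20 were called in all 8 fits without 1 library. The summed level of the 3 genes was 343.5 ± 13.6 FPKM in SG livers and 257.8 ± 8.86 FPKM in FG livers (SD, n = 4 each).

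**Figure D2:**
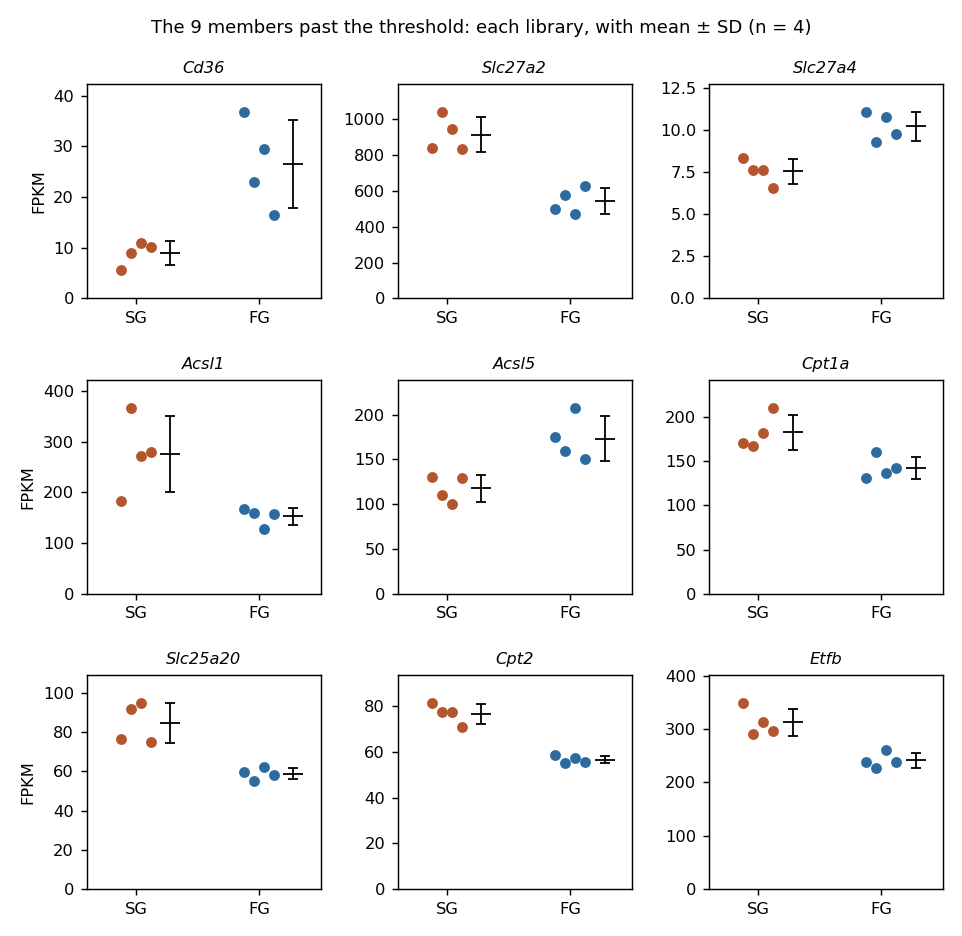
FPKM (vertical axes, from 0, scaled to each gene) of the 9 genes past the threshold, with 1 point per library for SG and FG livers and the mean ± SD of 4 libraries. In every panel the SG points lie wholly above or wholly below the FG points, by the widest margin relative to spread in Cpt2 and by the narrowest in Acsl1 and Cpt1a, where an SG and an FG library nearly meet.

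Groups that did not overlap were seen with SG above FG in 6 of the 34 genes and with SG below FG in 4, beside 4.35% and 21.8% of all tested genes, or 26.1% in either direction. The plot of the 9 genes past the threshold gives the libraries behind these counts, and the tenth gene is Vnn1. Because all 3 shuttle genes were called higher in SG livers, the 250 bases before their RefSeq starts on GRCm38.p6 are shown. They are written 5′ to 3′ on the strand of the gene, with TGACCT in capitals as above. TGACCT was found once, in Cpt1a, 94 to 89 bases before the start. The Cpt1a window lies inside the span of the gene, so its start is not the first of the gene.
Cpt1a, chr19:3323051-3323300, + strand: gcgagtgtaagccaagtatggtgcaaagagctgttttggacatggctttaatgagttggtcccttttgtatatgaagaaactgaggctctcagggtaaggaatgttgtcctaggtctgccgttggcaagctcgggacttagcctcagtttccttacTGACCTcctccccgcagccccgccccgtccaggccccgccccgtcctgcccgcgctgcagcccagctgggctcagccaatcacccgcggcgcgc
Slc25a20, chr9:108661886-108662135, + strand: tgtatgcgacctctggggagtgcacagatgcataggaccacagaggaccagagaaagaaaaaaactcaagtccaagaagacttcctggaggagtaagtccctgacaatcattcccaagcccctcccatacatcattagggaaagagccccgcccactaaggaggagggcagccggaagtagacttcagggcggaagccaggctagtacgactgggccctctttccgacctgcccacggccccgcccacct
Cpt2, chr4:107923590-107923839, - strand: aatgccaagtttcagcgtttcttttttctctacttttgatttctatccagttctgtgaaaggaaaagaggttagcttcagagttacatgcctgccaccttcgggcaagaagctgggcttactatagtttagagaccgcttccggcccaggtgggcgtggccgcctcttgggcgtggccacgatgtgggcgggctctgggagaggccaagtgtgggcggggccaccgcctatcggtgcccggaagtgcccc

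None of the 14 beta-oxidation genes was called, beside 19.4% of all tested genes called in either direction. With the deposited scaling their log2 fold changes lay between -0.27 and 0.21, with a median of 0.06. The smallest adjusted p was 0.135, 1 of the 14 had an unadjusted p below 0.05, and limma voom on recovered fragments also called none. Median-ratio scaling called none either, with log2 fold changes from -0.10 for Acads to 0.38 for Eci2, most of them positive. That scaling moved the median of all tested genes from -0.14 to 0.0059. Their summed level was 2128 ± 198 FPKM in SG livers and 2117 ± 163 FPKM in FG livers (SD, n = 4 each). The 95% intervals of the 14 reached at most 0.53 upward, for Eci2, and -0.54 downward, for Acads. A p above the threshold does not show that the levels were alike.

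Acyl-CoA dehydrogenases catalyse the first step of each cycle and divide the work by chain length. Acadvl, for very long chains, averaged 170.3 ± 18.2 FPKM in SG livers and 199.3 ± 18.8 FPKM in FG livers (-0.23, adjusted p = 0.161). Acadl, for long chains, averaged 116.3 ± 13.3 FPKM in SG livers and 130.1 ± 16.6 FPKM in FG livers (-0.16, adjusted p = 0.364). Acadm, for medium chains, averaged 173.5 ± 26.7 FPKM in SG livers and 150.9 ± 14.4 FPKM in FG livers (0.19, adjusted p = 0.303), and it was called only in the fit with estimated library weights (adjusted p = 0.0248). Acads, for short chains, is the gene with an unadjusted p below 0.05. It measured 102.9, 88.8, 88.9 and 70.9 FPKM in SG 101, 103, 104 and 105, against 107.2, 96.9, 116.2 and 101.9 FPKM in FG 93, 94, 95 and 96. Only SG 101 lay within the FG range (-0.27, adjusted p = 0.135, and 0.0499 without SG 101). Acad10 and Acad11, family members of less settled role, had log2 fold changes of 0.15 and -0.13 (adjusted p = 0.427 and 0.399).

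No gene of the later steps was called. Hadha and Hadhb encode the 2 subunits of the mitochondrial trifunctional protein, which acts on long chains, and they lie next to each other on chromosome 5 with 272 bases between their spans. Hadha measured 161.4, 154.5, 169.2 and 143.0 FPKM in SG livers, against 164.7, 134.3, 167.0 and 137.0 FPKM in FG livers. Hadhb measured 25.4, 28.9, 31.1 and 23.8 FPKM in SG livers, against 30.5, 23.0, 29.4 and 22.6 FPKM in FG livers. In both genes FG 94 and FG 96 were low, FG 93 and FG 95 were high, and the groups overlapped. Echs1, the short-chain enoyl-CoA hydratase, Hadh, the hydroxyacyl-CoA dehydrogenase, and Acaa2, the thiolase of the last step, had log2 fold changes of 0.15, 0.04 and 0.01 (adjusted p = 0.377, 0.833 and 0.959). Acaa2 had the highest level of the 14 in FPKM, 620.0 ± 63.9 in SG livers and 614.3 ± 28.9 in FG livers (SD, n = 4 each). Decr1, Eci1 and Eci2, the auxiliary enzymes for unsaturated fatty acids, had log2 fold changes of 0.11, 0.08 and 0.21 (adjusted p = 0.563, 0.707 and 0.339).

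Of the 3 electron transfer genes, only Etfb was called with the deposited scaling, higher in SG livers, beside 3.73% of all tested genes. Etfb (chr7:43444072-43457800, GRCm38.p6) encodes the beta subunit of electron transfer flavoprotein, which takes electrons from the acyl-CoA dehydrogenases. It measured 348.6, 290.8, 313.1 and 296.2 FPKM in SG 101, 103, 104 and 105, against 238.9, 226.7, 261.1 and 237.4 FPKM in FG 93, 94, 95 and 96, without overlap. For Etfb the log2 fold change was 0.37 (SE 0.09, adjusted p = 0.0217), and the call was lost without FG 93, FG 94, FG 96 or SG 104 (adjusted p up to 0.0608). Etfa, the alpha subunit of the same protein, averaged 26.7 ± 2.40 FPKM in SG livers and 27.98 ± 1.31 FPKM in FG livers (-0.07, adjusted p = 0.599). Etfdh encodes the dehydrogenase that passes the electrons to ubiquinone. It averaged 127.3 ± 19.3 FPKM in SG livers and 108.7 ± 4.81 FPKM in FG livers (0.21, adjusted p = 0.207). Etfdh was called after median-ratio scaling (0.39, adjusted p = 0.0477), with library weights (0.35, adjusted p = 0.0199) and without SG 101 (0.31, adjusted p = 0.0435).

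Ppara, the gene of the nuclear receptor itself, was close between the groups. It measured 41.6, 41.9, 44.1 and 39.1 FPKM in SG 101, 103, 104 and 105, against 44.2, 41.5, 34.1 and 44.0 FPKM in FG 93, 94, 95 and 96. All 4 SG values lay within the FG range, and FG 95 was lowest. The log2 fold change was 0.03 (95% interval -0.19 to 0.26, adjusted p = 0.846). Vnn1 encodes pantetheinase, an enzyme of coenzyme A turnover and a known PPAR-alpha target in mouse liver. It measured 12.9, 19.9, 28.2 and 3.31 FPKM in SG livers, against 50.1, 35.0, 35.6 and 30.9 FPKM in FG livers. The groups did not overlap, SG 105 was far below the other SG libraries, and the log2 fold change of -1.47 (SE 0.50) missed the threshold with an adjusted p of 0.0682. The exact two-sided permutation test gave p = 0.0286, the smallest value that 4 against 4 libraries allow. Without SG 104 Vnn1 was called (-1.83, adjusted p = 0.0457), and without SG 105 the estimate was -0.91 (adjusted p = 0.0565).

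Whether partner genes differed in their change was tested on 10 log2 ratios within each library. Acsl1 over Acsl5 differed most, with a mean FPKM ratio of 2.40 ± 0.82 in SG livers and 0.90 ± 0.19 in FG livers (SD, n = 4 each), a difference of 1.36 in the log2 ratio. The difference in the log2 ratio was -0.44 for Etfa over Etfb and 0.29 for Etfdh over Etfa. The groups did not overlap for these 3 ratios, and each had p = 0.0286 in the exact two-sided permutation test. After Benjamini-Hochberg adjustment over the 10 ratios each stood at an adjusted p of 0.0952, so none of the 10 passed. A ratio could pass only if 6 of the 10 had the smallest exact p, so this result does not show that the partners changed alike. The trifunctional protein subunits kept nearly the same FPKM ratio, 5.79 ± 0.48 in SG livers and 5.75 ± 0.27 in FG livers (exact p = 0.914). Counted fragments ran from 14232 to 19042 for Hadha and from 5293 to 7297 for Hadhb. The size of an FPKM ratio between 2 genes therefore also depends on the gene lengths used. Within the shuttle, Cpt1a over Cpt2 differed by -0.08 and Slc25a20 over Cpt2 by 0.08 in the log2 ratio (exact p = 0.571 and 0.371). Acadm over Acads had log2 ratios of 0.43 in SG 101 and 1.05, 1.17 and 1.24 in SG 103, 104 and 105, against 0.47, 0.55, 0.56 and 0.46 in FG 93, 94, 95 and 96 (exact p = 0.143). SG 103, 104 and 105 stood above every FG library and SG 101 below all of them.

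**Figure D3:**
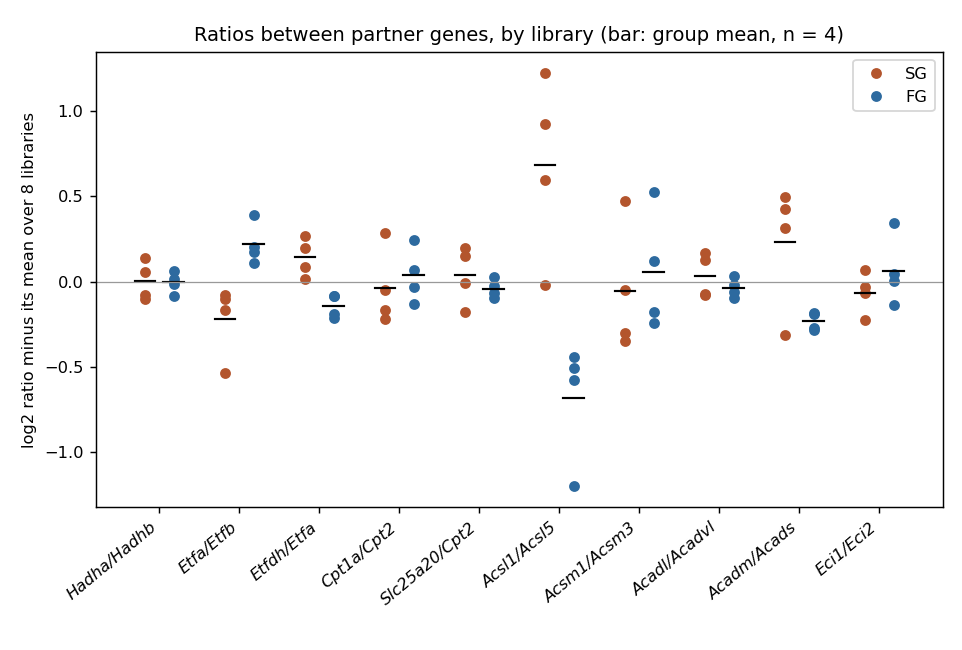
Log2 ratio of FPKM + 1 between partner genes, minus its mean over the 8 libraries (vertical axis), for 10 gene pairs; each point is an SG or FG library and the bar is the mean of 4. SG and FG points separate for Etfa/Etfb, Etfdh/Etfa and Acsl1/Acsl5, and for Acadm/Acads SG 101 lies apart from the 3 other SG points at 0.43 before centring.

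Some libraries stood high or low of their group in many of the genes. SG 104 had the highest value of its group in 20 of the 34 genes and SG 105 the lowest in 21, while SG 101 was highest in 9 and lowest in 9. FG 95 was highest in 15 and lowest in 8, and FG 93 was highest in 12 and lowest in 4. Among the 17 genes of beta-oxidation and electron transfer, SG 104 was highest in 12 and SG 105 lowest in 12, while FG 95 was highest in 12 and FG 94 lowest in 9. The median deviation of these 17 genes from the group mean was 0.15 in SG 104, -0.19 in SG 105, 0.15 in FG 95 and -0.09 in FG 94 on the log2 scale. Over all tested genes the medians of the same libraries were 0.02, -0.04, -0.0014 and -0.0010. Within-group spread was ordinary, with a median SD of 0.18 for the 34 genes and 0.18 for all tested genes. The SD was larger in SG than in FG livers for 23 of the 34 genes, beside 55.6% of all tested genes. All 34 genes together took 1.55 ± 0.15% of counted fragments in SG livers and 1.47 ± 0.03% in FG livers (SD, n = 4 each).

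**Figure D4:**
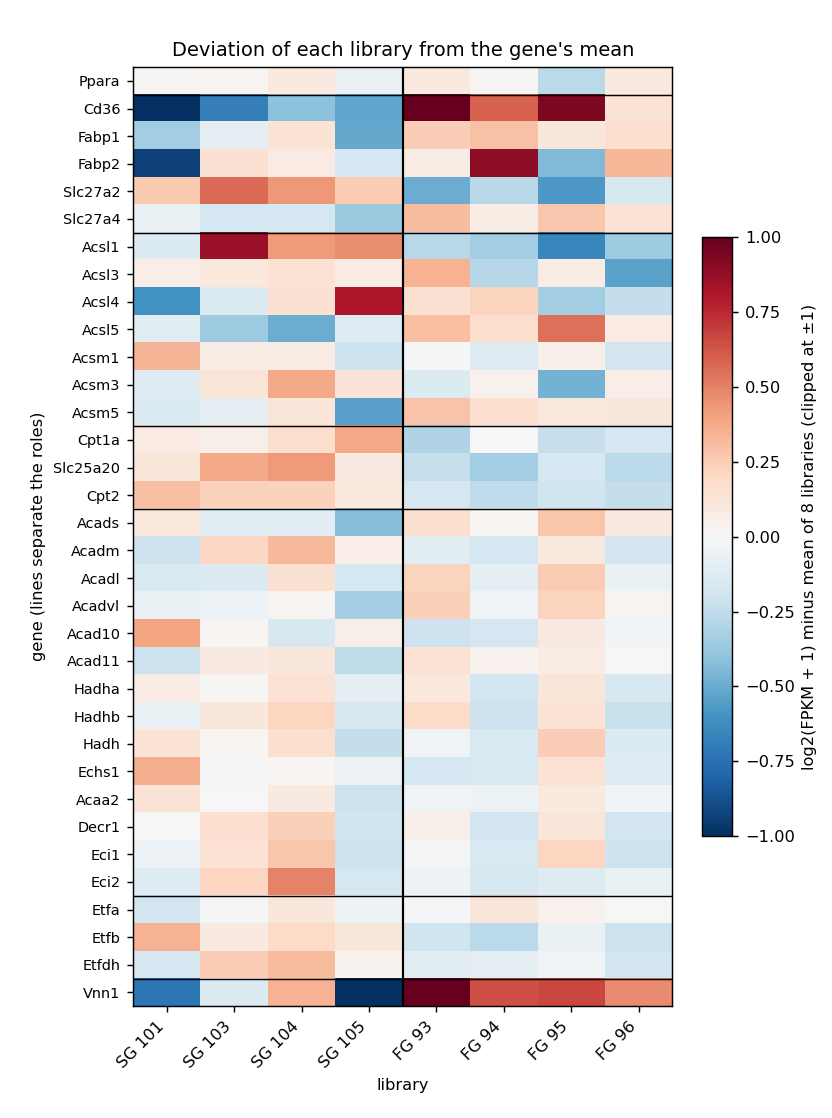
Deviation of log2(FPKM + 1) in each library (columns, SG left of FG) from the mean of the 8 libraries for each gene (rows, grouped by role), with colours clipped at 1 either way. For Slc27a2 and the 3 shuttle genes the SG cells are red and the FG cells blue or near white, while in the beta-oxidation rows colour follows the library, with SG 104 and FG 95 red and SG 105 blue in most rows.

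Other genes of the same pathway were read from 6 further lists of 68 genes, of which 65 were in the table and 55 were tested. In these lists 7 of the 55 genes were called higher and 9 lower in SG livers, beside the 3.73% and 15.6% of all tested genes. The share called lower was near the background and the share called higher was above it. The lists were not tested as sets. Among 9 tested genes of uptake and binding, Slc27a5, a liver bile acid and very-long-chain acyl-CoA synthetase, rose to 417.3 ± 29.3 FPKM in SG livers, against 320.5 ± 26.8 FPKM in FG livers (0.38, adjusted p = 0.0232). Fabp5, the epidermal type of fatty acid binding protein, fell to 27.8 ± 11.6 FPKM in SG livers, against 56.0 ± 16.3 FPKM in FG livers (-1.05, adjusted p = 0.0449). The Fabp5 call held in only 1 of the 8 fits without 1 library. Fabp3, the binding protein of heart and muscle, ran from 0 to 28.1 FPKM in SG livers and from 0 to 97.1 FPKM in FG livers, highest in FG 93, SG 104 and SG 105, the libraries with the most Acta1. Of 4 tested further acyl-CoA synthetases, Acss2, the cytosolic acetyl-CoA synthetase, and Acss3, a short-chain synthetase, fell (-0.93 and -0.71, adjusted p = 0.0464 and 0.0224). The groups overlapped for Acss2, with 121.9 FPKM in SG 101 and 114.7 FPKM in FG 93, and it was called in 1 of the 8 fits without 1 library.

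Of 7 tested genes of carnitine supply and malonyl-CoA control, 1 rose and 2 fell, beside backgrounds of 3.73% and 15.6%. This list held the largest fall of the 6 lists among called genes. Acacb encodes acetyl-CoA carboxylase 2, which makes the malonyl-CoA that inhibits Cpt1a at the mitochondrial surface. It measured 19.0, 12.9, 9.47 and 14.0 FPKM in SG 101, 103, 104 and 105, against 49.7, 38.6, 53.8 and 33.1 FPKM in FG 93, 94, 95 and 96. The groups were far apart, and the log2 fold change stood at -1.61 (SE 0.21, adjusted p = 0.00286). Mlycd, which breaks malonyl-CoA down, averaged 29.9 ± 2.60 FPKM in SG livers and 29.6 ± 3.24 FPKM in FG livers (0.01, adjusted p = 0.934). Slc22a5, the carnitine transporter of the plasma membrane, rose to 16.1 ± 4.54 FPKM in SG livers, against 9.09 ± 1.09 FPKM in FG livers (0.72, adjusted p = 0.0380). SG 101 lay within the FG range, and the Slc22a5 call held in only 1 of the 8 fits without 1 library. Bbox1, the last enzyme of carnitine synthesis, fell to 45.4 ± 6.39 FPKM in SG livers, against 60.7 ± 1.84 FPKM in FG livers (-0.42, adjusted p = 0.0280). The Bbox1 call held in 4 of the 8 fits without 1 library and was lost after median-ratio (adjusted p = 0.138) and quantile scaling (0.0507).

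Of 12 further mitochondrial acyl-CoA enzymes, most of them from amino acid breakdown, 3 rose and none fell, beside backgrounds of 3.73% and 15.6%. Ivd, isovaleryl-CoA dehydrogenase of leucine breakdown, measured 86.8, 73.4, 73.1 and 86.9 FPKM in SG livers, against 45.3, 43.1, 47.7 and 44.7 FPKM in FG livers (0.81, SE 0.09, adjusted p = 0.00147). Hsd17b10, a dehydrogenase of isoleucine breakdown, and Mmut, methylmalonyl-CoA mutase, rose by 0.59 and 0.33 (adjusted p = 0.00847 and 0.0497). The Mmut call held in only 2 of the 8 fits without 1 library. Of 9 tested genes of coenzyme A synthesis and hydrolysis, 3 fell, where 15.6% of all tested genes were called lower. They were Ppcs and Coasy, enzymes of coenzyme A synthesis, and Nudt7, a peroxisomal coenzyme A hydrolase (-0.70, -0.46 and -0.79, adjusted p = 0.0155, 0.0348 and 0.0486). Nudt7 was called in only 2 of the 8 fits without 1 library.

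Of 14 tested partners and coregulators of PPAR-alpha, 2 rose and 1 fell, a share near the 19.4% of all tested genes called in either direction. Lpin2, a phosphatidate phosphatase, and Creb3l3, a liver transcription factor of the fasting response, rose by 0.59 and 0.36 (adjusted p = 0.0170 and 0.0305). Ncoa1, a nuclear receptor coactivator, fell by 0.40 on the log2 scale (adjusted p = 0.0232). Rxra, the main partner receptor in liver, measured 96.5, 73.3, 86.4 and 74.2 FPKM in SG livers and 95.2, 95.2, 93.6 and 91.9 FPKM in FG livers (-0.19, adjusted p = 0.198). Ppargc1a, the coactivator PGC-1 alpha, was below the filter, at 0.764, 0.892, 2.31 and 2.38 FPKM in SG 101, 103, 104 and 105 and 0.810, 0.712, 0.511 and 0.694 FPKM in FG 93, 94, 95 and 96. Of the 16 called genes of the 6 lists, 4 were called in all 8 fits without 1 library, namely Acacb, Ivd, Hsd17b10 and Ppcs, and 9 were called after median-ratio scaling. The genes not called with that scaling were Fabp5, Acss2, Acss3, Bbox1, Coasy, Nudt7 and Ncoa1, all lower in SG livers with the deposited scaling. Nudt7 and Mmut, which had overlapping groups, were also not called by limma voom on recovered fragments.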

How the data were processed

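Liver RNA of 4 SG and 4 FG samples was sequenced as paired reads on an Illumina NovaSeq instrument, per the labels' protocols. The authors deposited FPKM per gene. The tools named per the submitters' processing notes are DESeq2, HTSeq, HISAT2 and fastp, and the builds are mm10 and GRCm38, with no versions or roles. The sources used here do not say whether counting was by strand. All 8 FPKM columns bear a sample's own label.

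Genes with at least 1 FPKM in at least 4 of the 8 libraries were tested on log2(FPKM + 1), pseudocount 1, with limma 3.58.1 in R 4.3.3 (empirical Bayes with a trend, no covariates). Adjusted p-values are Benjamini-Hochberg over all 9867 tested genes, two-sided. Exact permutation tests ran over 70 assignments. Whole fragments were recovered for 100% of genes within 0.02 fragments, from the FPKM steps. They gave the depths, whose sums were off by at most 0.0353%, and an alternative fit with voom. Scripts were tested on simulated data.

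All 34 members are named, and of each further list the called genes with the smallest p, up to 4, plus 7 genes asked for by name. Fabp3 was named after its values were seen. The members and lists were chosen with earlier results of these data known. Alternatives covered pseudocount, filter, scaling, variance model, library weights, threshold and leaving out each library. Promoter windows come from RefSeq on GRCm38.p6.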

Additional observations from a re-analysis of the deposited data

Results flagged for a closer look

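In each of the 34 genes and 10 ratios, the SG and the FG libraries were examined for 1 library set apart from the other 3 by more than the Dixon 95% limit for 4 samples, which compares the gap to the nearest library with the whole range. Of 88 such groups, 3 were flagged, and chance flags about 5% of groups. Acadl, the long-chain acyl-CoA dehydrogenase, was set apart in SG 104, at 136.2 FPKM beside 108.0 to 111.1 FPKM in the other SG libraries (gap over range 0.88). Echs1, the short-chain enoyl-CoA hydratase, was set apart in FG 95, at 171.6 FPKM beside 137.8 to 142.4 FPKM in the other FG libraries (0.851). Acaa2, the mitochondrial thiolase, was set apart in FG 95, at 657.3 FPKM beside 594.7 to 603.7 FPKM in the other FG libraries (0.85). SG 104 and FG 95 were each highest of their group in 12 of the 17 genes of beta-oxidation and electron transfer. Those counts include the flagged genes, so the flags are not separate support for them.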

How the results depend on the processing

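Among all tested genes, the 368 called higher became 219 without a filter on low values, 572 with library weights and 99 at an adjusted p below 0.01, and ranged from 181 to 467 without 1 library. The 1544 called lower became 914 without a filter, 499 after median-ratio, 502 after trimmed-mean and 616 after quantile scaling, 316 at the stricter threshold, and 653 to 1896 without 1 library. Of the 34 genes, the 6 called higher became 2 at the stricter threshold and 3 to 7 without 1 library (3 without SG 104, 7 without SG 101). The 3 called lower became 1 after median-ratio or trimmed-mean scaling and 1 at the stricter threshold, and 1 to 4 without 1 library (1 without FG 93 or SG 103, 4 without SG 101). Signs reversed among estimates that were not called. Acadl became 0.02 after median-ratio (0.0160) and trimmed-mean scaling (0.0162), Acad11 0.0427 and 0.0429, and Etfa 0.0987 and 0.0989, with 0.0695 after quantile scaling. Hadh became -0.0088 and Acaa2 -0.14 after quantile scaling. Without 1 library, Ppara ranged from -0.0523 to 0.0696, Acsl4 from -0.1449 to 0.3262, Hadhb from -0.0139 to 0.1242, Hadh from -0.0056 to 0.1298, Acaa2 from -0.0365 to 0.0793, Eci1 from -0.0011 to 0.1615 and Mlycd from -0.0461 to 0.0661. The number of partner ratios past the threshold stayed at 0 with a pseudocount of 0.1. The scaling shifts the median of all genes by construction, and the stricter threshold calls fewer genes by construction; the cause of the other changes was not tested. No paired analysis was possible because the groups share no replicate number. With 4 libraries per group, ratios of partner genes could pass adjustment only if 6 of the 10 had the smallest exact p.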
